A study of Caenorhabditis elegans with 4 samples.

Results

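The regions described here are the MRE-11 peaks on chromosome V of Caenorhabditis elegans, taken as every row of the deposited peak lists whose sequence name is V. The series-wide list placed 403 of its 2720 peaks on V, the list of ChIP replicate 1 placed 397 of 2471 there, and that of ChIP replicate 2 placed 182 of 1294. The worms were of the strain fem-2(b245), with the genotype fem-2(b245)III, listed as hermaphrodite young adults with a germline, kept at 20 °C, while the growth protocol speaks of gravid animals. Both groups of the study, 2 MRE-11 ChIP libraries and 2 libraries of input DNA, came from this strain, and no other strain was analysed here. A rabbit polyclonal antibody against MRE-11, purified by affinity, was used. Per the labels' protocols, frozen ground worms of every sample were crosslinked in EGS for 20 min and in EGS plus formaldehyde for another 10 min. The chromatin came from whole worms, so nuclei of the germline and of the soma were not separated. No data of the input libraries were read here, and whether they served as the control of the authors' peak lists is not given. Nothing in the labels ties the replicates to separate cultures, so they may be technical.

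MRE-11 is the nuclease of the conserved complex that it forms with RAD-50, and this complex binds and trims the ends of DNA double-strand breaks. In the worm germline it takes part in making and processing the breaks of meiotic recombination, and in worms as in other organisms it repairs breaks that arise when DNA is copied. fem-2 encodes a protein phosphatase of the sex determination pathway that promotes male fates, sperm formation in hermaphrodites included. Chromosome V is an autosome whose arms hold many genes of chemoreceptor families, and it also carries the tandem array of the genes for 5S ribosomal RNA and the SL1 spliced leader. Crossovers in this species are frequent on the arms of the chromosomes and rare in their central parts. Coordinates below are those of the authors' files on WormBase WS220. No genome or gene annotation of that build was used, so peaks are given by position and no peak is assigned to a gene or shown with its sequence.

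V was the longest of the 6 chromosomes by the largest peak end in the lists, 20848313 bp, or 20.8% of the summed length, and it held 14.8% of the series-wide peaks, 16.1% of the replicate 1 peaks and 14.1% of the replicate 2 peaks. Per Mb, V held 19.04 peaks of replicate 1, 8.73 of replicate 2 and 19.3 series-wide peaks. Relative to the other 4 autosomes pooled, the density on V was 0.615 (0.551 to 0.686, 95% interval) for replicate 1 and 0.506 (0.430 to 0.593) for replicate 2, with a mean of 0.561 ± 0.077 (SD, n = 2). It was 0.559 (0.501 to 0.622) for the series-wide peaks. V had been picked out for its low density, so these ratios are a description with no test. The intervals cover counting error only and take peaks as independent. Replicate 1 peaks covered 4.04% of V, replicate 2 peaks 2.15% and series-wide peaks 0.728%. Sequencing depth is unknown, so a stretch without a peak is one where none was listed.

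Peaks on V were less often strong than those on the other autosomes pooled. Median widths on V were 1756 bp (replicate 1), 2179 bp (replicate 2) and 286 bp (series-wide), against 1821, 2327 and 310.0 bp on the other autosomes. The score is the value the authors' peak caller gave each peak, on a scale the files do not name. Scores are compared here inside a list, and across the 2 replicates where matched peaks are set side by side. Median scores on V were 247.5 (replicate 1), 219.7 (replicate 2) and 7.53 (series-wide), against 288.7, 309.7 and 7.79. Single autosomes came near or below V, with a median replicate 1 score of 239 and width of 1760.5 bp on chromosome I and a median series-wide score of 7.435 on chromosome IV. These medians were not tested. In a comparison chosen after the values were seen, 50 of 397 V peaks (12.6%, 95% interval 9.49 to 16.3%) were among the strongest 20% of replicate 1, against 409 of 1905 (21.5%) on the other autosomes (Fisher's exact test, two-sided, p = 3.24e-05, adjusted p = 9.72e-05). For replicate 2 these were 23 of 182 (12.6%) and 210 of 1061 (19.8%, Fisher's exact p = 0.0234, adjusted p = 0.0234), with chromosome II nearest to V at 13.9%. Among series-wide peaks they were 63 of 403 (15.6%) and 445 of 2129 (20.9%, Fisher's exact p = 0.0146, adjusted p = 0.0220). The p-values were adjusted over these 3 tests, which take peaks as independent. Without chromosome III or without chromosome IV among the others, the replicate 2 difference no longer passed (Fisher's exact, adjusted p = 0.0517 and 0.0657), nor did it with the strongest 10% (adjusted p = 0.0623). With the strongest 50%, the replicate 1 and series-wide differences did not pass (Fisher's exact, adjusted p = 0.131 and 0.587).

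The strongest V region was near the left end, and it was the only one on V at the score of 3100, where the replicate lists pile up, in both replicates. Replicate 1 listed it as 125738 to 129469 and replicate 2 as 124918 to 128970, each with a score of 3100. The series-wide list held 2 peaks inside it, 126236 to 127219 with a score of 50.11 and 127802 to 128376 with 38.79, the strongest and the third strongest on V. The first of them was 12th in the whole series-wide list, and no other V peak was among its 20 strongest.

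The other 8 of the 10 strongest series-wide peaks on V lay further in. The second, 11505014 to 11505396, scored 40.33. It was followed after the left-end pair by 12598847 to 12599676 with a score of 38.71, 7775465 to 7777092 with 37.89 and 12317615 to 12319081 with 37.24. These 4 peaks lay in the central part of the chromosome when it is divided into 3 equal parts. The remaining peaks were 5592315 to 5592676 with a score of 36.53, 15511557 to 15512284 with 35.64, 9549391 to 9549737 with 34.32 and 4570058 to 4570740 with 33.45. All 10 overlapped a peak of each replicate. In the strongest 20% of the series-wide list, 85.7% of V peaks and 95.1% of those on the other autosomes did so. Of the 10, 5 lay in the central part, 4 in the left part and 1 in the right part, and their widths ran from 347 to 1628 bp.

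The 10 strongest replicate 2 peaks on V all had a match in replicate 1, which is near the 97.9% of all replicate 2 peaks. Of the 10 strongest replicate 1 peaks on V, 6 had no match in replicate 2. Over all chromosomes 51.7% of replicate 1 peaks were matched. In the strongest 20% of that list, 80% of V peaks and 91.2% of those on the other autosomes were matched. Among the regions found in both, those strong in one list tended to be strong in the other. After the left-end region, the strongest by mean rank in both replicates was 7774682 to 7777922, with a score of 2240.1 in replicate 1 and 2222 in replicate 2. The next were 14684061 to 14689048 with 2381 and 1632, 12315948 to 12320198 with 1699 and 2323, and 6015723 to 6019664 with 1646 and 1702. In these 4 regions neither replicate was always the higher one. Over all 177 replicate 2 peaks on V that overlapped a replicate 1 peak, each paired with its strongest partner, the scores correlated with Spearman's rho = 0.82 and, on the log10 scale, Pearson's r = 0.81. These describe peaks of the same 2 libraries and carry no p. The other autosomes had a rho between 0.76 (chromosome II) and 0.82 (chromosome I). The replicate 1 score was the higher one in 155 of the 177 pairs (87.6%). The midpoints of paired peaks lay a median of 184.5 bp apart, and the median widths of the pairs were 2138 bp in replicate 1 and 2213 bp in replicate 2.

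**Figure D1:**
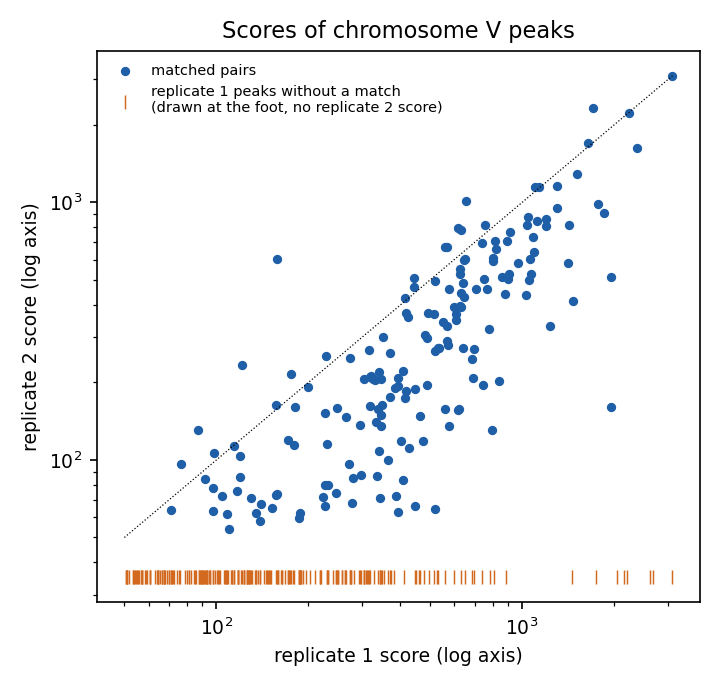
Each point is 1 of the 177 replicate 2 peaks on chromosome V with its strongest overlapping replicate 1 peak, with the replicate 1 score on the x axis and the replicate 2 score on the y axis, both on log axes. The dotted line marks equal scores, and ticks at the foot are the 219 replicate 1 peaks without a match, 10 of which lie within the strongest 20% of the replicate 1 list.

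Replicate 1 peaks on V recurred in replicate 2 less often than those of the other autosomes. Of the 397 replicate 1 peaks on V, 178 (44.8%, 95% interval 39.9 to 49.9%) overlapped a replicate 2 peak by at least 1 bp, against 1052 of 1905 (55.2%, 52.96 to 57.5%) on the other autosomes and 51.7% over all 6 chromosomes. Fisher's exact test, two-sided, gave p = 0.000168 (adjusted p = 0.000504 over the 6 tests of V against the other autosomes). The share on V was below that of each other autosome, which lay between 54.1% (chromosome II) and 56.8% (chromosome III). In the other direction nearly every replicate 2 peak on V was matched, 177 of 182 (97.3%, 93.7 to 99.1%), against 1041 of 1061 (98.1%) on the other autosomes and 97.9% over all chromosomes (Fisher's exact p = 0.397, adjusted p = 0.476). Because nearly all replicate 2 peaks were matched, the share of replicate 1 peaks follows the numbers listed, which were 45.8 replicate 2 peaks per 100 replicate 1 peaks on V and 55.7 on the other autosomes. V was picked for its low counts, so this share is not independent of them. The tests take peaks as independent and measure no spread between libraries.

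The series-wide peaks on V showed the same order. Of the 403, 212 (52.6%, 47.6 to 57.6%) overlapped peaks of both replicates, against 1341 of 2129 (62.99%) on the other autosomes and 59.5% over all chromosomes (Fisher's exact p = 0.000115, adjusted p = 0.000504). A further 170 (42.2%) overlapped replicate 1 only, against 31.5% on the other autosomes. No V peak overlapped replicate 2 only, which was also rare on the other autosomes, with 6 of 2129 (0.282%). On V 21 (5.21%) overlapped neither, the same share as on the other autosomes, 5.21%. Series-wide peaks and replicate peaks come from the same libraries, so the test compares chromosomes and not replicates. As for replicate 1, the share depends on the replicate 2 peaks listed, and V was picked for its low counts. On V the median score was 9.95 for peaks in both replicates, 5.86 for those in replicate 1 only and 4.35 for those in neither, and the median widths were 378, 252.5 and 181 bp. The strongest V peaks in neither replicate were 15590253 to 15590446 with a score of 13.16, 17392382 to 17392549 with 10.14 and 17655251 to 17655481 with 7.79.

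**Figure D2:**
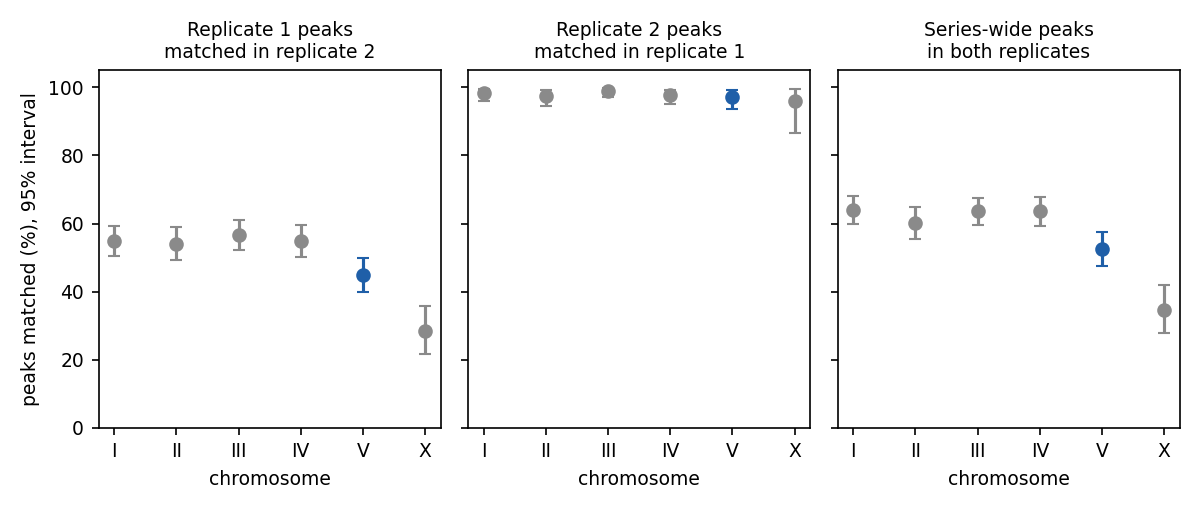
Points give the percent of peaks matched on each chromosome (x axis), with 95% exact Clopper-Pearson intervals, for replicate 1 peaks in replicate 2, replicate 2 peaks in replicate 1 and series-wide peaks in both replicates. Chromosome V (blue) stands at 44.8%, 97.3% and 52.6%, below chromosomes I to IV and above X in each panel. Its interval overlaps those of all other chromosomes for replicate 2 peaks, and only that of chromosome II in the other panels.

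The matched shares were also set side by side at similar scores, without a test. If V peaks had been matched at the rate of the other autosomes within each decile of score, 199.5 of the 397 replicate 1 peaks (50.2%) would have had a match, and 178 (44.8%) did. For series-wide peaks in both replicates the corresponding numbers were 246.9 and 212. In the weakest 20% of the replicate 1 list, 10.6% of V peaks and 12.5% of peaks on the other autosomes were matched, in the next 20% the shares were 25.8% and 25.8%, in the middle 20% they were 44.8% and 55.2%, and in the next 77.9% and 83.9%. In the strongest 20% they were 40 of 50 (80%, 66.3 to 89.97%) and 373 of 409 (91.2%, 88.02 to 93.8%). Series-wide peaks in both replicates were fewer on V also among the weak ones, with 36.4% against 44.6% in the weakest 20% and 33.3% against 46.2% in the next. In the middle 20% the shares were 53.3% and 52.3%. These splits were made after the shares were seen and were not tested. The shares at similar scores still depend on the replicate 2 peaks listed, and V was picked for its low counts.

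**Figure D3:**
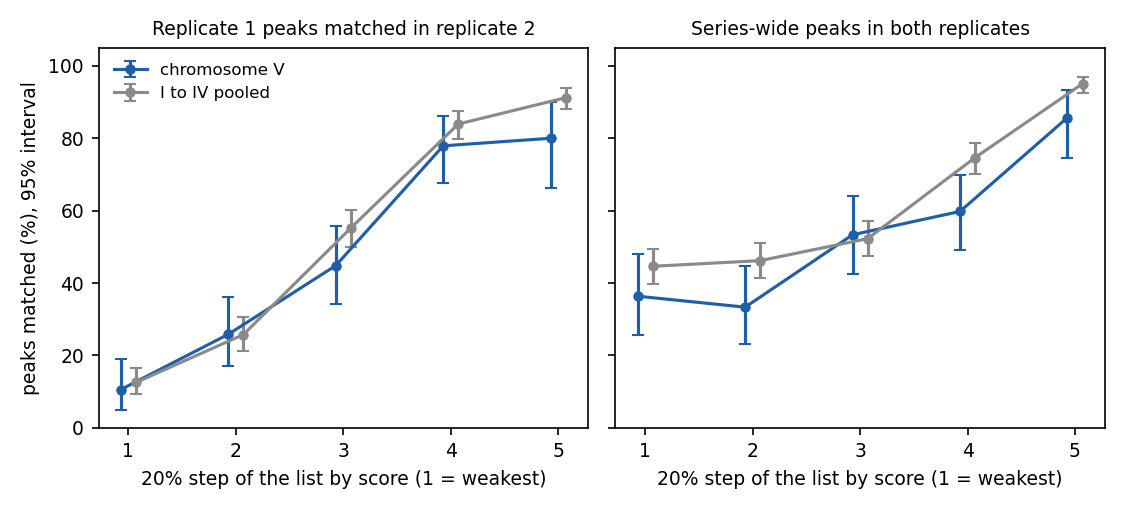
Percent of peaks matched (y axis, 95% exact Clopper-Pearson intervals) in 5 equal steps of each list's scores (x axis, 1 is the weakest 20%), for chromosome V in blue and chromosomes I to IV pooled in grey. For replicate 1, V and the other autosomes nearly coincide in the 2 weakest steps and stand at 80% and 91.2% in the strongest, while for series-wide peaks V lies lower in each step but the middle one.

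Of the 50 V peaks in the strongest 20% of the replicate 1 list, 10 (20%) had no match, against 8.80% on the other autosomes, and they included 6 of the 10 highest scores on V. They were mostly wide, with widths from 2608 to 13129 bp and a median of 5982.5 bp, against a median of 3059.5 bp for the 40 matched ones. The strongest was 9338197 to 9344857 with a score of 3100, followed by 3434250 to 3441538 with 2679 and 15320295 to 15323162 with 2625. The nearest replicate 2 peak was 2894 bp from the first of these, 142008 bp from the second and 71202 bp from the third. The series-wide list placed 4 peaks inside the first, 1 inside the second and 3 inside the third. Their scores were 1.68 to 8.45, 1.48 and 4.18 to 19.9.

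Of the 10 strong unmatched peaks, 4 held no series-wide peak, whereas each of the 40 matched ones held at least 1. The widest of the 4, which was also the widest replicate 1 peak on V, ran from 17119489 to 17132617 (13129 bp) with a score of 1461, and the nearest replicate 2 peak was 199446 bp away. The other 3 were 10605252 to 10612870 with a score of 2198, 4332780 to 4337052 with 2157 and 5282872 to 5286287 with 806. On the other autosomes 36 of 409 strong replicate 1 peaks were unmatched, with a median width of 4317.5 bp, and 12 of these held no series-wide peak. Of the 5 widest replicate 1 peaks on V, 4 had no match, as had 55.2% of all replicate 1 peaks on V. Among peaks wider than 5 kb in the strongest 20% of replicate 1, 6 on V were unmatched and 4 matched. On the other autosomes these numbers were 14 and 40. The widest replicate 2 peak, 9543184 to 9550867 (7684 bp, score 814), coincided with a matched replicate 1 peak of 7728 bp.

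The 5 replicate 2 peaks on V without a match were weak, with scores from 65.74 to 120.8, and none held a series-wide peak. The strongest were 19635790 to 19637256 with 120.8, 11732500 to 11734246 with 95.32 and 7083836 to 7085147 with 77.36. The widest series-wide peaks on V were 9341929 to 9344321 (2393 bp, score 8.45, replicate 1 only) and 19364540 to 19366531 (1992 bp, score 3.62, both replicates). They were followed by 7775465 to 7777092 (1628 bp) and 12317615 to 12319081 (1467 bp), both among the strongest above, and by 6939032 to 6940264 (1233 bp, score 4.97), which overlapped neither replicate.

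Along the chromosome, the central part of V was richer in peaks than its arms. In replicate 2 the left, central and right parts held 6.04, 12.95 and 7.19 peaks per Mb, in replicate 1 they held 17.1, 22.3 and 17.7, and in the series-wide list 17.4, 23.6 and 16.98. The central part held 39.04% of replicate 1 peaks on V, against 39.7% on the other autosomes (Fisher's exact p = 0.822, adjusted p = 0.822), and 49.5% of replicate 2 peaks, against 45.1% (Fisher's exact p = 0.295, adjusted p = 0.476). For the series-wide list the shares were 40.7% and 38.2% (Fisher's exact p = 0.372, adjusted p = 0.476). None of these differences passed. With the middle 50% of each chromosome as the centre, V held more of its peaks there than the other autosomes in replicate 2 (74.7% against 64.2%, Fisher's exact p = 0.00529, adjusted p = 0.00793) and in the series-wide list (66.998% against 56.1%, Fisher's exact p = 4.54e-05, adjusted p = 0.000272). For replicate 1 peaks it did not pass (60.7% against 58.2%, Fisher's exact p = 0.371, adjusted p = 0.397).

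Counts in bins of 1 Mb showed where the V peaks thinned out. The stretch from 4 to 16 Mb, chosen after the counts were seen, makes up 57.6% of V and held 66.8% of the replicate 1 peaks, 79.1% of the replicate 2 peaks and 71.7% of the series-wide peaks. In replicate 2 the density was 12 peaks per Mb inside it and 4.29 outside. The bins from 3 to 4 Mb and from 18 to 19 Mb were the poorest in replicate 2, with 1 and 2 peaks. Replicate 1 listed 9 and 21 peaks in these bins, of which 1 and 2 were matched. The richest bin of both replicates was that from 10 to 11 Mb, with 33 peaks in replicate 1 and 17 in replicate 2, where the bin from 12 to 13 Mb also held 17. In the series-wide list the bin from 6 to 7 Mb was the richest, with 42.

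**Figure D4:**
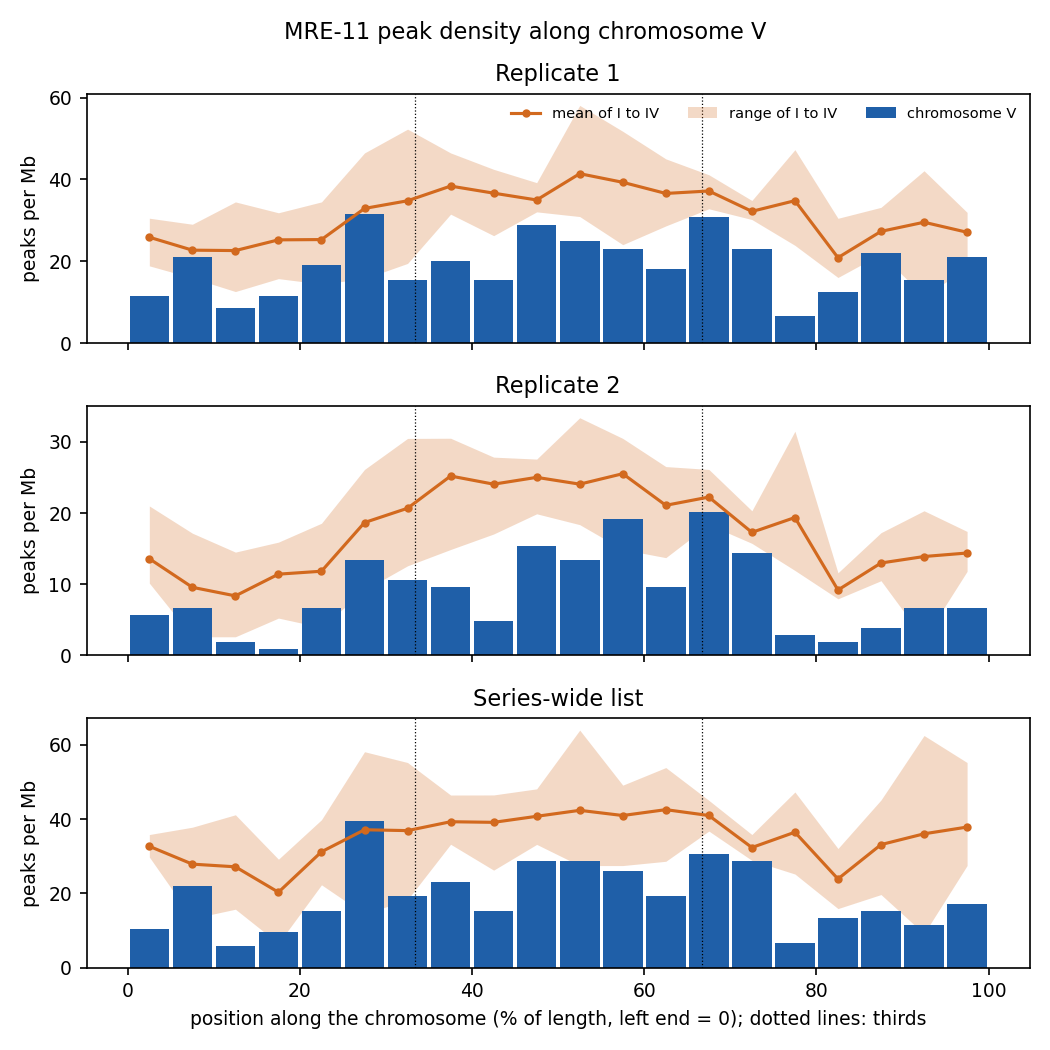
Blue bars give peaks per Mb (y axis) on chromosome V in steps of 5% of its length (x axis, left end at 0), for each list. The orange line is the mean and the band the range of chromosomes I to IV at the same relative position, and dotted lines divide the chromosome into 3 parts. The replicate 2 bars are low below 25% and beyond 75% of the length, with the lowest at 15 to 20%. The tall series-wide bar at 25 to 30% holds the densest window of V.

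The arms of V were also where replicate 1 peaks most often lacked a match. In the left part 42 of 119 (35.3%, 26.8 to 44.6%) were matched, in the right part 48 of 123 (39.02%, 30.4 to 48.2%), and in the central part 88 of 155 (56.8%, 48.6 to 64.7%). On the other autosomes 50.1% were matched in the arms and 63.01% in the central part. The median scores of the replicate 1 peaks in the left, central and right parts of V were 262.8, 264.75 and 222.9. The longest stretches of V without a replicate 2 peak lay in the arms, from 16920044 to 17869985, from 18087945 to 18979649 and from 2695437 to 3583545. They held 10, 14 and 6 replicate 1 peaks and 11, 7 and 5 series-wide peaks. The longest stretch with no series-wide peak was 2694891 to 3439609 (744.7 kb), followed by 15766444 to 16245307 (478.9 kb) and 16965899 to 17390778 (424.9 kb). No list had a peak from 2891648 to 3434249 (542.6 kb), the longest such stretch on V.

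The end peaks of V overlapped between the lists on the right and, apart from an unmatched first peak of replicate 1, on the left. Replicate 1 opened with a peak from base 1 to 795 with a score of 348.7, which had no match. Replicate 1 peaks from base 1 or 2 were also listed on chromosomes I, II and X. The next replicate 1 peak on V, 6637 to 9467 (score 609.8), overlapped the first replicate 2 peak, 6442 to 9389 (score 367.7). The first series-wide peak, 8007 to 8335 (score 10.94), lay inside both. At the right end replicate 1 closed with 20844683 to 20847411 (score 1410), replicate 2 with 20844877 to 20848313 (score 583) and the series-wide list with 20845306 to 20845999 (score 21.52). The largest of these ends stood for the length of V, so the distance to the true end was not measured.

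The densest 100 kb of V was 6000001 to 6100000, with 25 series-wide peaks, against a mean of 1.93 per window of V. It was also the densest of replicate 1, with 14 peaks, while replicate 2 listed 4 there. The pattern within it changed along its length. In the left portion the replicates had the same regions, among them 6016315 to 6019640 of replicate 1 with a score of 1646 and 6015723 to 6019664 of replicate 2 with 1702. From 6052786 to 6094853 (42.07 kb) replicate 1 listed 9 peaks in a row with no replicate 2 peak. They covered 50.4% of these bases and scored from 69.76 to 1746, with a median of 178.2.

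The strongest of these 9 peaks was 6070747 to 6073354 (score 1746), followed by 6085026 to 6090329 (score 888) and 6091116 to 6093139 (score 559). Of the 25 series-wide peaks of the window, 20 lay in this run. Those with scores above 10 were 6071497 to 6071952 (25.08), 6091495 to 6091955 (17.77), 6088773 to 6089281 (17.65) and 6072209 to 6072852 (12.63). Next were 6075228 to 6075465 (9.37), 6075716 to 6076287 (8.03), 6087901 to 6088228 (7.30), 6053340 to 6053526 (5.63) and 6087541 to 6087834 (5.42). The other 11 scored from 2 to 4.78 and lay between 6077644 and 6094609. Past the run both replicates had a peak again, 6095186 to 6097515 in replicate 1 (score 423) and 6095481 to 6097097 in replicate 2 (score 360.04), with the series-wide peak 6095819 to 6096147 (score 9.24). The series-wide peaks of the window outside the run that are not yet named were 6000393 to 6000617 (16.3), 6017229 to 6018272 (24.08), 6018954 to 6019140 (2.09) and 6043424 to 6043646 (2.92), each in both replicates.

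**Figure D5:**
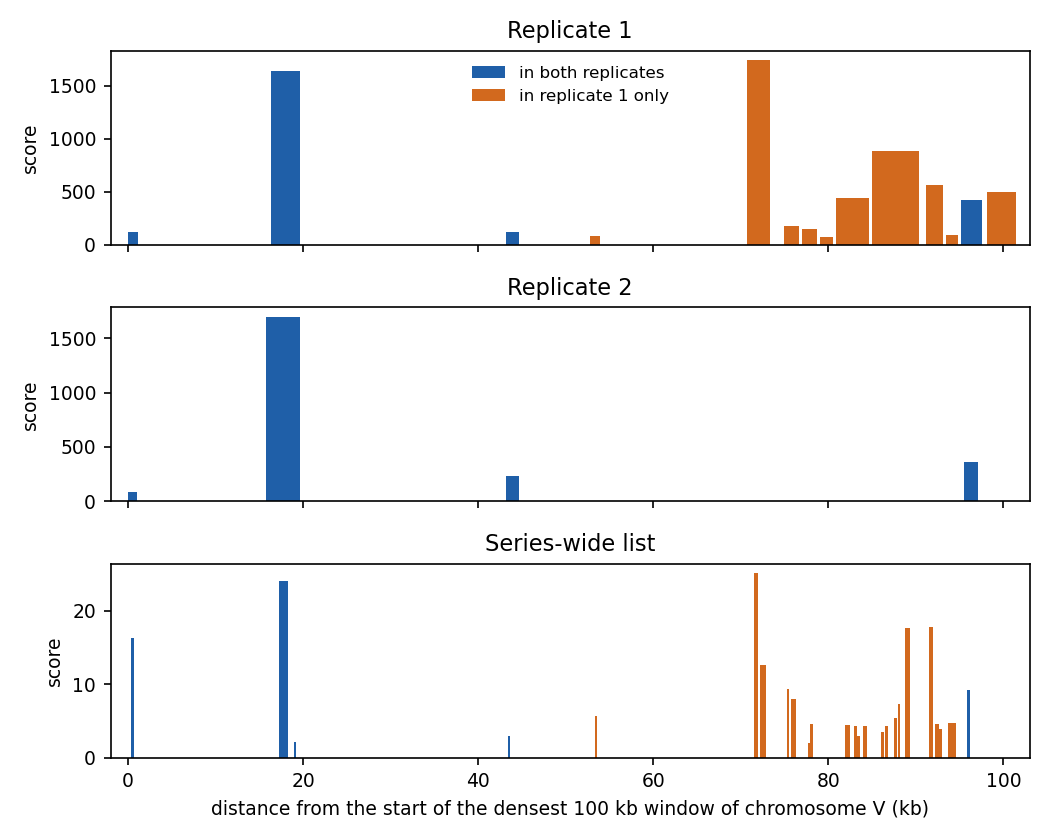
Bars mark the peaks of each list in the densest 100 kb window of chromosome V, with distance from the window's start on the x axis, score on the y axis and bar width equal to peak width. Blue peaks are in both replicates and orange ones in replicate 1 only; the orange run holds 9 replicate 1 peaks, 20 series-wide peaks and no replicate 2 peak, and 1 more orange replicate 1 peak closes the window.

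Without the peaks of this run, the share of series-wide V peaks in both replicates was 55.4%, against 62.99% on the other autosomes (Fisher's exact p = 0.00511, adjusted p = 0.0153), and the matched share of replicate 1 peaks was 45.9%, against 55.2% (Fisher's exact p = 0.000802, adjusted p = 0.00481). The run was left out after its peaks had been seen to lack a match, and such runs on the other autosomes were kept. Both shares on V could therefore only rise. They also depend on the listed counts, and V was picked for its low counts. The other dense windows of V were less full. For the series-wide list they were 10000001 to 10100000 with 8 peaks and 1200001 to 1300000 with 7. For replicate 1 they were 20400001 to 20500000 with 8 peaks and 10300001 to 10400000 with 6, and for replicate 2 they were 5500001 to 5600000, 6000001 to 6100000 and 11900001 to 12000000 with 4 each. Of the 209 windows of V, 62 held no series-wide peak, 49 no replicate 1 peak and 102 no replicate 2 peak.

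Outside the dense window most replicate peaks on V held 1 series-wide peak. Of the replicate 1 peaks on V, 98 (24.7%) held none, 241 (60.7%) held 1, 41 (10.3%) held 2 and 17 (4.28%) held 3 or more, dense window included. Their median scores were 101.5, 293.6, 529.9 and 1134 in this order, and their median widths were 1717, 1630, 2307 and 4312 bp. On the other autosomes 20.2% held none and 5.09% held 3 or more. In replicate 2, 16 of the 182 V peaks (8.79%) held none, against 5.75% on the other autosomes. A neighbour within 5 kb was listed for 45.9% of the series-wide peaks on V, against 53.4% on the other autosomes. For replicate 1 peaks the shares were 34.005% and 38.06%, and for replicate 2 peaks 17.03% and 22.53%. Fewer peaks per Mb leave fewer neighbours, and V was picked for its low density, so the neighbour shares on V are not independent of that choice. None of the shares in this paragraph was tested.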

How the data were processed

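The deposited files used were 3 lists of peaks, with a start, an end and a score for each. Per the file headers, positions are on WormBase WS220. The caller named in the authors' files is MACS for each replicate list and MACS v2 for the series-wide one. The submitters' processing notes give ce10 as the build and BWA as the aligner, without a version. The control of each list, and whether the series-wide list pools the replicates' reads, are not given in the sources used here. No file names the scale of the deposited score, which was used as it stands.

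From these lists, overlaps of at least 1 bp, shares with exact Clopper-Pearson 95% intervals and two-sided Fisher's exact tests of V against the other 4 autosomes were computed with scipy 1.17.1, pandas 2.3.3 and numpy 2.4.6 under Python 3.11.15. Plots were made in matplotlib 3.10.9. Benjamini-Hochberg adjustment was made over the 6 planned tests and, separately, over the 3 tests of strong peaks, which were added later. The largest peak end stood for each chromosome's length. The overlap function was tested on simulated lists. The regions named are the 10 strongest series-wide peaks of V, the 5 strongest in both replicates by mean rank, the 3 strongest without a match in each list, the widest peaks, the ends, the 3 densest windows, the peaks of the densest one and the longest stretches without a peak. The other strong unmatched peaks were chosen after their values were seen. The chromosome, the rules for regions and the tests were chosen with earlier results of these data known. Genes and sequences were left out because no genome of the build WS220 was used.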

Additional observations from a re-analysis of the deposited data

How the results depend on the processing

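No paired analysis was possible because no data of the input libraries, which share the replicate numbers, were read here. Among 85 values recomputed under an alternative, 69 stayed on their side of the threshold with the same direction, or within their spread. Some of these could not have changed. Making each chromosome 1% longer leaves a density ratio as it was. Leaving out the unmatched replicate 1 run leaves every value of replicate 2 as it was. The lower matched share on V of replicate 1 and series-wide peaks passed under each of the overlap rules, score limits and left-out chromosomes tried. These alternatives use the same lists, and V was picked for its low counts. The passes are therefore not independent of that choice. Leaving out 1 of the replicates moved the mean density ratio from 0.561 to 0.506 or 0.615, which is within their SD by construction. Differences below are V minus the other autosomes, in percentage points. The matched share of replicate 2, -0.86 at first, turned to 0.40 under 50% reciprocal overlap and 0.87 at or above the median score, and never passed. The central share of replicate 1 turned from -0.69 to 0.13 at or above the median score, to 2.49 with the middle 50% and, in an alternative chosen after seeing the data, to 0.21 without the run in the densest window. That of the series-wide list turned from 2.46 to -3.15 at or above the median score and passed at 10.9 with the middle 50%, as did that of replicate 2 at 10.5. The cause was not tested. The density ratio of replicate 2 moved from 0.506 to 0.407 under that score limit. A neighbour was listed for 36.97% of series-wide V peaks within 2 kb and 68.5% within 20 kb, as the distance sets. The share of strong peaks, a comparison added after seeing the data, no longer passed for replicate 2 with the strongest 10% (-4.20), without chromosome III (-6.17) or without chromosome IV (-5.87), and for replicate 1 (-4.76) and the series-wide list (-1.49) with the strongest 50%. Depth is unknown, so no value carries an interval from read counts.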

Other observations

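Runs of neighbouring replicate 1 peaks without any match were looked for after the densest window had been seen. Of the 43 runs of 5 or more such peaks over the 6 chromosomes, 12 were on V, against 4 to 7 on each other autosome and 9 on X. The run with the most peaks was on V, with 14 from 18124932 to 18968297 (843.4 kb, scores 54.54 to 412), and a further V run held 10 peaks from 16927279 to 17858605. The V run in the densest window differed from these in being compact, with 2.14 peaks per 10 kb. The most compact run was also on V, with 5 peaks from 20421398 to 20437721 (3.06 peaks per 10 kb, scores 53.52 to 163.01), and 1 series-wide peak lay in it. Compact runs were not limited to V. A chromosome I run from 2036147 to 2055185 (2.63 peaks per 10 kb) was more compact than that of the densest window. These are descriptions with no test, and long runs are more likely where fewer peaks are matched.

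Some matched regions of V differed widely in score between the replicates. The replicate 1 peak 5639552 to 5641774 scored 517.9, and its strongest replicate 2 partner scored 64.59. At 13907005 to 13910143 the scores were 158 in replicate 1 and 600.2 in replicate 2. These regions were chosen after their values were seen.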
